A study of Homo sapiens with 2 samples.

Results

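The transforming growth factor beta (TGF-beta) and bone morphogenetic protein (BMP) pathway was followed through 40 listed genes, namely 10 ligand genes, 10 receptors, 8 SMAD proteins, 4 ID target genes and 8 antagonists or negative regulators. A gene entered when the platform annotation gave at least 1 probe set to it alone, which held for 37 of the 40 among 17689 genes in all. The 37 genes had 98 probe sets. BMPR1A, NOG and GREM1 had none that named them alone and were not analysed here. The shKDM4A group was cells of LNCaP, a human line from prostate carcinoma that responds to androgen, infected with lentivirus that carried a short hairpin RNA against the histone demethylase KDM4A. The control group was LNCaP cells infected with virus of the pLKO.1 vector with no insert. Both cultures were harvested 3 days after infection, and 3 µg of total RNA from each was labelled for an Affymetrix Human Genome U133 Plus 2.0 array. The hairpin's sequence is not given in the sources used here, and an empty vector does not control for the presence of a hairpin. Each group had 1 array, so there is no replicate check on any value and no p-value.

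TGF-beta family ligands are secreted dimers that bring type I and type II serine/threonine kinase receptors together at the cell surface. The type I receptor then phosphorylates receptor-activated SMADs, which join SMAD4 and enter the nucleus: SMAD2 and SMAD3 for TGF-beta and activin, SMAD1, SMAD5 and SMAD9 for BMPs. ID genes, which encode inhibitors of basic helix-loop-helix transcription factors, are classical targets of BMP signalling. In normal prostate epithelium TGF-beta restrains growth, and LNCaP cells are known for a weak response to it.

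KDM4A itself was lower in the shKDM4A culture on both probe sets, at -0.90 and -1.46, with a mean log2 difference of -1.18 ± 0.40 (SD over 2 probe sets), 2.26-fold lower. Every value here is a log2 difference, shKDM4A minus control. The deposited values are centred on the mean of the 2 arrays, so the 2 array values of a gene are mirror images. The level of a gene is therefore not known. The ± SD printed with a gene is taken over its own probe sets and holds no spread between cultures. Gene differences over the whole table had a median of 0.020 and quartiles of -0.14 and 0.18, and probe sets of one gene differed with a pooled SD of 0.33. The LNCaP identity could not be checked, since centring removes levels. Luminal prostate markers had a median difference of 0.11 over 8 measured genes, and FOXA1 was the single one past 2-fold (-1.16 ± 1.75), on 2 probe sets that disagreed, at 0.079 and -2.39. TMPRSS2 lay at -0.76 ± 0.16, with all 4 probe sets below 0. FOXA1 and TMPRSS2 were the 2 luminal markers below 0, and the other 6 lay above 0, up to 0.48 (FOLH1). Across all genes, 1.16% passed 2-fold upward and 1.44% downward. The 9 measured fibroblast and smooth muscle markers had a median of 0.0040. Of them, 5 lay above 0, against 53.7% of all genes, and 4 lay below 0, down to -0.29 (FAP). ACTA2 was the single one past 2-fold (2.14 ± 2.42, 2 probe sets at 3.85 and 0.43). The 5 markers of embryonic kidney, the origin of the HEK293T cells that made the virus, had a median of 0.015 and ran from -0.34 (PAX2) to 0.49 (NEFL). Whether these marker differences take part in the results below was not tested.

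Of the measured pathway genes, 3 stood above 2-fold. BMPR1B, a type I BMP receptor, and the ID genes ID1 and ID3 were 2.29-fold, 2.27-fold and 2.29-fold higher in the shKDM4A culture. These 3 of 37 measured members (8.11%) compare with 1.16% of all genes at least 2-fold higher. The members were chosen with earlier results of these data known, so the shares describe the list and test nothing. No member was at least 2-fold lower, against 1.44% of all genes. At a 1.5-fold rule the count of higher members stayed at 3, against 4.3% of all genes, and 1 member, INHBE, was lower, against 4.38% of all genes. In a bulk culture, fewer cells that express a gene and less of its RNA per cell cannot be told apart. Counted by probe set, 3 of 98 (3.06%) were at least 2-fold higher, against 1.48% of all probe sets with 1 gene. Of the 37 members, 27 (73%) lay within 0.3 of 0 on the log2 scale, close to the 73.2% of all genes that did. The median over the members was 0.076, and 22 members (59.5%) lay above 0, against 53.7% of all genes. By role, the median log2 difference was 0.074 for ligands, 0.23 for receptors, -0.047 for SMADs, 0.68 for the ID genes and -0.0044 for antagonists and negative regulators.

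**Figure D1:**
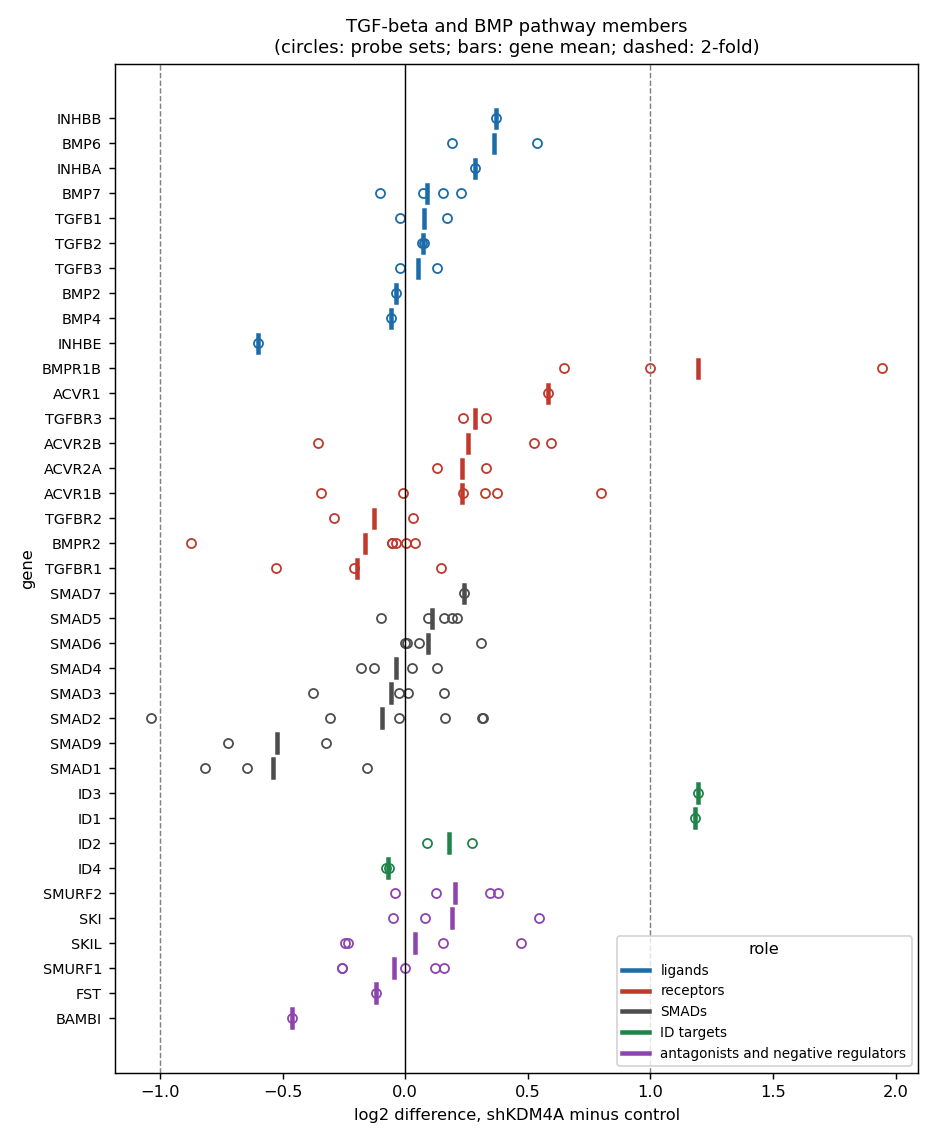
Log2 difference (x axis, shKDM4A minus control) of the 37 measured members (y axis), ordered within each role. Open circles are single probe sets, bars are gene means, and dashed lines mark 2-fold either way; BMPR1B, ID3 and ID1 are the gene means beyond the upper line, at 1.20, 1.19 and 1.18.

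The ID genes had a median of 0.68 through ID1 and ID3, which rest on 1 probe set each. Without probe sets ending in _x_at or _s_at the ID median was -0.065, from ID4 alone, and over the ID genes with 2 or more probe sets it was 0.055. ID3 read 0.60 in the shKDM4A array and -0.60 in the control array, a log2 difference of 1.19 on its 1 probe set. ID1 read 0.59 in the shKDM4A array and -0.59 in the control array, a difference of 1.18, also on 1 probe set. Both lay far up the list of all 17689 genes, ID3 at rank 135 and ID1 at rank 141 from the highest. The other ID genes did not follow: ID2 lay at 0.18 ± 0.13 and ID4 at -0.071 ± 0.0096, each over 2 probe sets. A further probe set that names both ID2 and ID2B read 0.28. The probe sets of ID1 and ID3 are of the kind ending in _s_at, which can match several transcripts. With 1 probe set each, neither gene has a second measurement on these arrays. Among the 8745 genes with 1 probe set, 1.43% were at least 2-fold higher.

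The 250 bases before the RefSeq start of each ID gene are given to set the genes that were past 2-fold, ID1 and ID3, beside those that were not. Sequences are from RefSeq on GRCh38.p14, read 5′ to 3′ on the gene's strand. Capitals mark the SMAD box CAGAC and the TATA box TATAAA, both searched on either strand.
ID1, chr20:31605039-31605288 (+ strand): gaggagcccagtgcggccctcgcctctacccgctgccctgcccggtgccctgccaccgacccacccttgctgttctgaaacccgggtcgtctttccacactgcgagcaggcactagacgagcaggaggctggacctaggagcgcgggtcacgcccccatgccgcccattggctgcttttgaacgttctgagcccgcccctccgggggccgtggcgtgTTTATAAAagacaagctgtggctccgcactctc
ID3, chr1:23559502-23559751 (- strand): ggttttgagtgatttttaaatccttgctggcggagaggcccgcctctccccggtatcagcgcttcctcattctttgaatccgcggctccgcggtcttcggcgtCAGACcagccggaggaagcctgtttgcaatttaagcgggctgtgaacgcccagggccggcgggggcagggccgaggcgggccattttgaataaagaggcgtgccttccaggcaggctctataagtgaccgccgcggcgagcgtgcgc
ID2, chr2:8681806-8682055 (+ strand): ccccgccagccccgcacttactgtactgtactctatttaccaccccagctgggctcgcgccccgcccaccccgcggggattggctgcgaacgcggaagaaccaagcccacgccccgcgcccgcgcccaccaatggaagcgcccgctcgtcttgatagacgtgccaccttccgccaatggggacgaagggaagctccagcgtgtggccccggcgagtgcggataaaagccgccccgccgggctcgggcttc
ID4, chr6:19837120-19837369 (+ strand): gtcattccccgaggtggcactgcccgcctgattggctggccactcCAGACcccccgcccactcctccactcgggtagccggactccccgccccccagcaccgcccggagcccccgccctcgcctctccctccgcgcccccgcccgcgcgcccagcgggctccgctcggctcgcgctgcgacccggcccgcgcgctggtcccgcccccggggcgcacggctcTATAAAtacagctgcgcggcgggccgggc
ID1 had no SMAD box in this window and a TATA box read on both strands in overlapping letters. ID3 had 1 SMAD box and no TATA box. ID2 had neither, and ID4 had 1 of each. The SMAD box is common, being present in 38% of 35116 promoter windows of this length, and the TATA box in 10.7%. The GC-rich SMAD box GGCGCC, a site known to bind BMP-activated SMADs and held by 16.4% of all windows, was in none of the 4 windows. For the E-box CANNTG, where ID partners bind, ID1 and ID3 had no match, and ID2 and ID4 had 1 each, against 61.8% of all windows with a match. None of these motifs was present in both ID1 and ID3. A match marks letters and not binding, and elements farther from the start were not searched.

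Among the receptors, BMPR1B had the largest difference. Averaged over its probe sets it read 0.60 in the shKDM4A array and -0.60 in the control array. Its 3 probe sets read 0.65, 0.997 and 1.94, all above 0, with a mean of 1.20 ± 0.67 (SD over 3 probe sets). The mean stood at rank 134 from the highest of all genes. The middle one was just short of 2-fold, so the gene is past 2-fold by its mean and not by its median. ACVR1, another type I receptor that signals for BMPs, lay at 0.58 on 1 probe set, just under 1.5-fold higher. ACVR1B, the type I receptor for activin, lay at 0.23 ± 0.38 over 6 probe sets, which ran from -0.34 to 0.80. TGFBR1, the type I receptor for TGF-beta, lay at -0.20 ± 0.34 over 3.

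Type II receptors, which bind ligand and activate the type I partner, had gene means from -0.16 to 0.25. TGFBR2 lay at -0.13 ± 0.23 over 2 probe sets. The activin receptors ACVR2A (0.23 ± 0.14, 2 probe sets) and ACVR2B (0.25 ± 0.53, 3 probe sets) lay above 0. The probe sets of ACVR2B disagreed, at -0.36, 0.52 and 0.59. BMPR2, the BMP type II receptor, had a mean of -0.16 ± 0.35 over 6 probe sets. Of these, 5 lay between -0.056 and 0.039 and the other read -0.87, so the mean of BMPR2 is set by 1 probe set. TGFBR3, the co-receptor betaglycan that presents ligand, lay at 0.28 ± 0.067 with both probe sets above 0.

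In the ligands the differences ran from -0.60 to 0.37. TGFB1, TGFB2 and TGFB3 lay at 0.076 ± 0.14, 0.072 ± 0.0064 and 0.054 ± 0.11, each over 2 probe sets. BMP2 and BMP4, close relatives of the fly ligand Dpp, lay at -0.036 and -0.058 on 1 probe set each. BMP7 lay at 0.087 ± 0.14 over 4 probe sets, and BMP6, which is expressed in prostate cancer, at 0.36 ± 0.24 with both of its 2 probe sets above 0. The activin beta subunits went both ways. INHBB lay at 0.37 and INHBA at 0.29, while INHBE, a subunit made mainly in liver and known to be induced by stress of the endoplasmic reticulum, read -0.30 in the shKDM4A array and 0.30 in the control array. Its difference of -0.60, 1.52-fold lower, was the lowest of all measured members and rested on 1 probe set.

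Of the receptor-activated SMADs, SMAD1 and SMAD9 of the BMP branch stood lowest. SMAD1 averaged -0.27 in the shKDM4A array and 0.27 in the control array, and SMAD9 (also called SMAD8) -0.26 in the shKDM4A array and 0.26 in the control array. SMAD1 thus lay at -0.54 ± 0.34, with 3 probe sets at -0.82, -0.65 and -0.16. SMAD9 lay at -0.52 ± 0.28, with 2 probe sets at -0.72 and -0.32. All 5 probe sets of this pair were below 0, and the differences are 1.45-fold and 1.44-fold, short of 2-fold. The third SMAD of that branch, SMAD5, lay at 0.11 ± 0.12 over 5 probe sets. BMPR1B, ID1 and ID3 read higher in the same culture in which SMAD1 and SMAD9 read lower. Whether these differences are linked was not tested.

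The SMADs of the TGF-beta and activin branch and the shared SMAD4 lay near 0. SMAD3 had a mean of -0.058 ± 0.23 and SMAD4 of -0.037 ± 0.14, each over 4 probe sets. SMAD2 had a mean of -0.095 ± 0.52 over 6 probe sets, of which 1 read -1.04 and the 2 highest 0.31 and 0.32, so SMAD2 has no settled direction on these arrays. That probe set was the single member probe set at least 2-fold lower, 1.02% of 98, against 2.39% of all probe sets with 1 gene. The inhibitory SMADs, feedback inhibitors of the receptors, lay at 0.24 for SMAD7 (1 probe set) and 0.092 ± 0.15 for SMAD6 (4 probe sets).

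**Figure D2:**
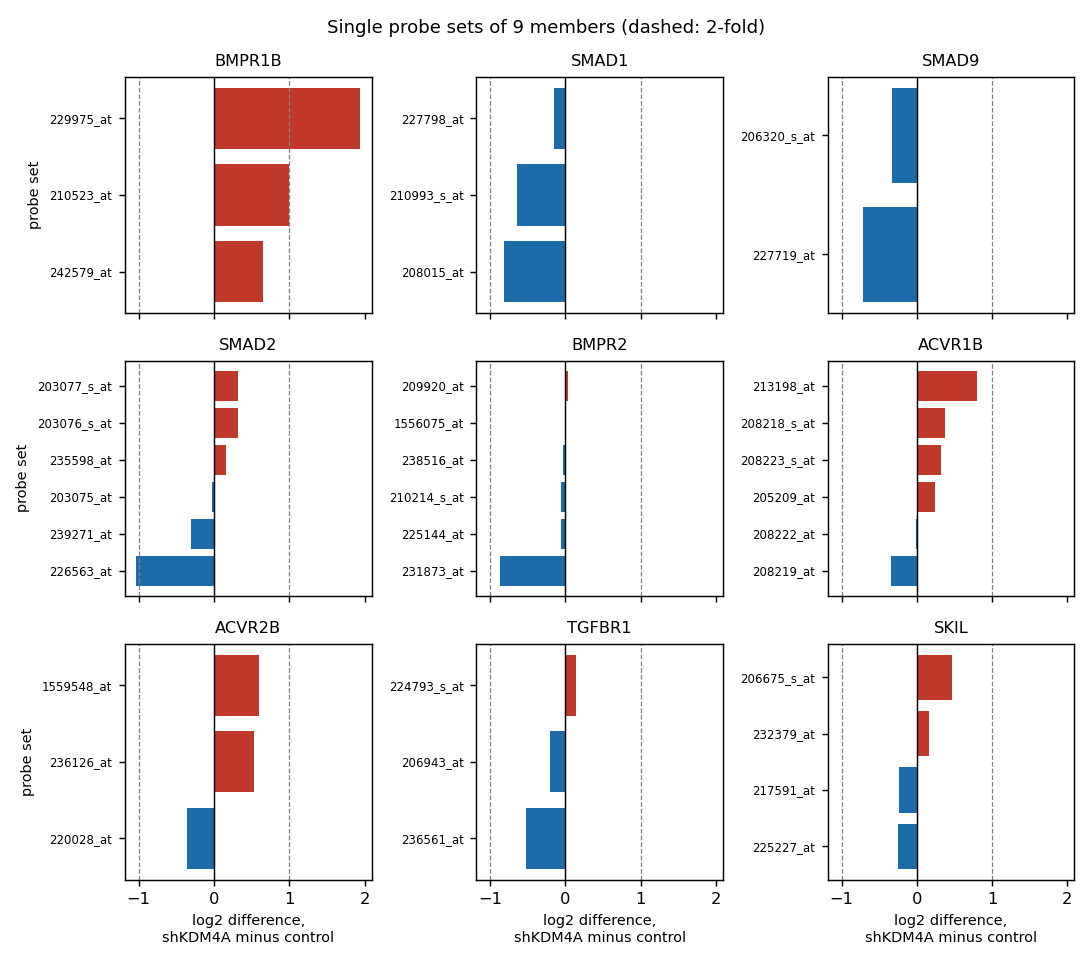
Log2 difference (x axis, shKDM4A minus control) of every probe set (y axis) of 9 members, red above 0 and blue below, with dashed lines at 2-fold. The probe sets of BMPR1B all lie above 0 and those of SMAD1 and SMAD9 all below it, while 1 probe set at -0.87 stands apart from the other 5 of BMPR2 and 1 at -1.04 is the lowest of SMAD2.

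Antagonists and negative regulators lay on both sides of 0. BAMBI, a pseudoreceptor with no kinase domain that blocks type I receptors, was the lowest, at -0.46 on 1 probe set. FST, which encodes the activin trap follistatin, lay at -0.12 on 1 probe set. The SMAD corepressors SKI and SKIL lay at 0.19 ± 0.31 (3 probe sets) and 0.038 ± 0.34 (4 probe sets). The ubiquitin ligases SMURF1 and SMURF2, which mark SMADs and receptors for degradation, lay at -0.047 ± 0.20 (5 probe sets) and 0.20 ± 0.20 (4 probe sets). This role held 4 genes measured by several probe sets, and in 0 of them did the probe sets share a sign. The probe sets shared a sign in 9 of all 26 such members, against 50.3% of all such genes. A shared sign is less likely the more probe sets a gene has. These shares were not matched for that number, so they do not show that members disagree more than other genes.

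Other genes of the pathway were taken as lists outside the 40. Of 17 other ligands measured, none was 2-fold apart and the median was 0.012. In lists of this size a count of 0 is near the shares over all genes, 1.16% higher and 1.44% lower, and the same holds for the other lists below with none past 2-fold. GDF11, a ligand close to myostatin, lay highest at 0.93 ± 0.54 with all 5 probe sets above 0, from 0.12 to 1.47. BMP15 lay at 0.25, GDF7 at -0.13 and GDF2 at -0.10. Other receptors and co-receptors had a median of -0.050 over 7 genes, with the co-receptor RGMA at 0.38 ± 0.42 and ACVR1C at 0.21 highest, and HJV at -0.30 and ENG at -0.16 ± 0.16 lowest. Other antagonists and latency proteins had a median of -0.013 over 16 genes. FSTL1, a follistatin-like secreted protein, lay at -0.49 ± 0.56 over 2 probe sets and CHRDL2 at -0.34, while LTBP4 and LTBP3, which hold latent TGF-beta, lay at 0.27 ± 0.071 and 0.069 ± 0.11.

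SMAD partners and regulators had a median of -0.059 over 19 genes and none 2-fold apart. PMEPA1, an androgen- and TGF-beta-induced inhibitor of SMAD signalling, lay at 0.50 ± 0.061 with all 3 probe sets above 0. RNF111, a ubiquitin ligase that aids SMAD signalling, lay at 0.25. PPM1A, a phosphatase that acts on SMADs, lay at -0.56 ± 0.74 over 6 probe sets between -1.55 and 0.31, and LEMD3, an inner nuclear membrane protein that binds SMADs, at -0.36. The E proteins TCF3, TCF4 and TCF12, the partners that ID proteins sequester, lay at 0.025 ± 0.19, 0.23 ± 0.28 and -0.16 ± 0.20.

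Of the genes known to be induced through SMAD2 and SMAD3, 16 of 18 measured lay above 0, against 53.7% of all genes, with a median of 0.16. This list too was chosen with earlier results of these data known, so its shares are description alone. Past 2-fold were 2 of 18 (11.1%, against 1.16% of all genes) and none was 2-fold lower. They were CDKN1A, the cell cycle inhibitor p21, at 1.93 on 1 probe set, and CCN1, a matricellular protein, at 1.33 ± 0.33 with both probe sets past 2-fold. CDKN1A is also a p53 target and CCN1 is also induced by serum and YAP, so neither is a measure of SMAD activity alone. COL1A1 and COL3A1, also in the fibroblast marker list, lay at 0.73 ± 0.76 over 4 probe sets and 0.63 ± 0.68 over 3. The lowest were MMP2 at -0.17 ± 0.25 and BHLHE40 at -0.014 ± 0.10. Genes induced through SMAD1 and SMAD5 had a median of 0.064 over 10 genes and none 2-fold apart. Highest were HEY1, a transcriptional repressor that is also a Notch target, at 0.76 ± 0.27 with both probe sets above 0, and DLX2, a homeobox factor, at 0.75 ± 0.70 over 2. MSX2 at -0.16 and ATOH8 at -0.047 ± 0.27 were the lowest.

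**Figure D3:**
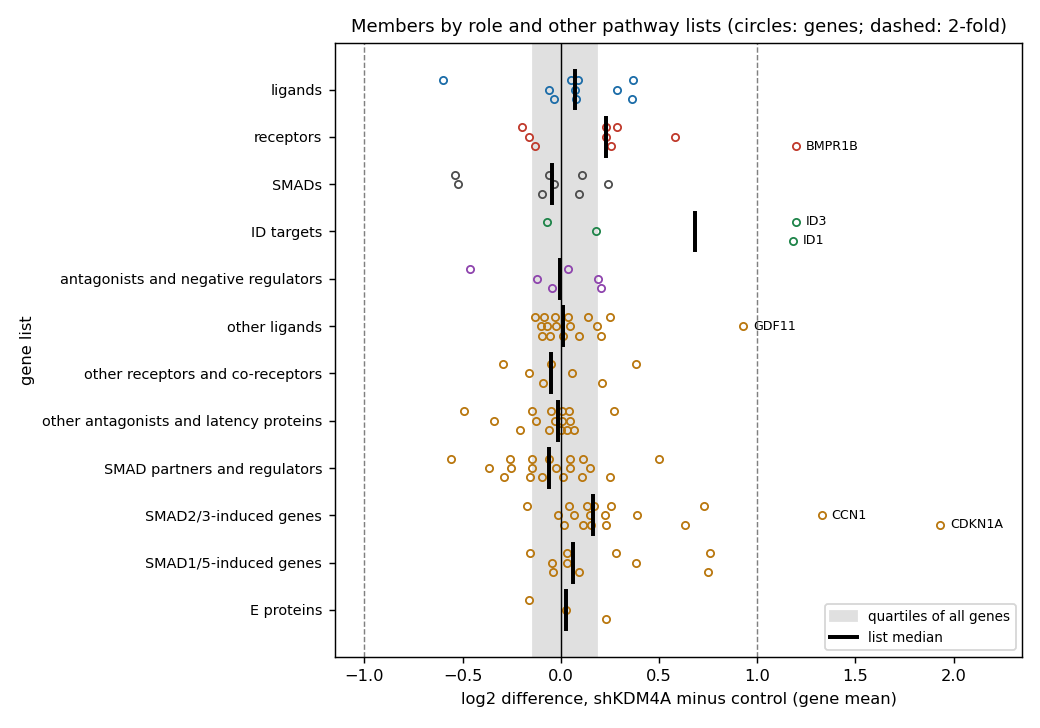
Log2 difference (x axis, shKDM4A minus control) of gene means in the 5 member roles and the 7 lists of other pathway genes (y axis). Circles are genes, black bars list medians, the grey band runs between the quartiles of all genes (-0.14 and 0.18) and dashed lines mark 2-fold; beyond the upper line lie BMPR1B, ID1, ID3, CCN1 and CDKN1A.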

How the data were processed

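RNA abundance was measured on 2 arrays, 1 per group. The deposited values were taken as log2. Per the submitters' processing notes RMA, robust multi-array averaging, was used, with no version given. The file held 44672 probe sets, and in every row the 2 array values summed to 0 within 2e-06. Levels, background and detection are therefore lost, and no filter on dim probe sets could be applied. Neither the centring step nor the log base is stated in the labels used here; base 2 was taken because RMA works on it.

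Genes were named through the platform annotation, checked by Entrez identifier against RefSeq genes of GRCh38.p14 (34839 of 34880 probe sets with 1 gene matched). The 1619 probe sets naming several genes, 8131 unnamed here and 42 control probe sets entered no gene value. A gene's value was the mean over its probe sets of the difference, shKDM4A minus control. At least 2-fold is a rule of size, not a test. All 40 members were to be named, and of the other pathway lists the genes past 2-fold and the 2 highest and 2 lowest. Promoter windows were matched by symbol, and 35 members had one. Members and lists were chosen with earlier results of these data known. The calculation was tested on simulated data. Python 3.11.15, numpy 2.4.6, pandas 2.3.3 and matplotlib 3.10.9 were used.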

Additional observations from a re-analysis of the deposited data

How the results depend on the processing

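No paired analysis was possible because each group had 1 array, and no array could be left out. The count of members at least 2-fold higher, 3 of 37, was 1 of 30 without probe sets ending in _x_at or _s_at. Among genes with 2 or more probe sets it was 1 of 26. BMPR1B was the gene left in both settings. ID1 and ID3, with 1 probe set each ending in _s_at, could not count in either. At a 3-fold rule the count was 0 of 37. With medians over probe sets it was 2 of 37, ID1 and ID3. The share over all genes was not computed at these settings. The count of members at least 2-fold lower, 0, became 1 at a 1.5-fold rule. Without probe sets ending in _x_at or _s_at 7 members lost every probe set (BMP2, BMP4, INHBA, ID1, ID2, ID3 and FST). The ID median of 0.68 was then -0.065, from ID4 alone, and it was 0.055 over ID2 and ID4, the ID genes with 2 or more probe sets. The medians of the other roles and of all members moved by less than 0.33, the pooled SD between probe sets, under all 4 other settings of probe sets and scaling. That limit is a loose one, since it is a spread of single probe sets and larger than each of these medians. The scaling setting only subtracted 0.014 from every value. Some medians near 0 turned sign: that of the SMADs was 0.012 with medians over probe sets, and that of the antagonists and negative regulators, -0.0044, was 0.0074 without probe sets ending in _x_at or _s_at and 0.11 over the genes with several probe sets. That of the ligands, 0.074, was 0.17 without probe sets ending in _x_at or _s_at. Medians over probe sets or leaving out such probe sets moved 35 values of single members, by 0.27 or less. A member that moved in both settings counts as 2 of these values. The largest move was that of ACVR2B, from 0.25 to 0.52 with medians. The sign turned for SMAD2 (0.070 with medians), SMAD3 (0.066 without such probe sets), SKIL (-0.11 without them, -0.038 with medians) and SMURF1 (0.0074 without them). The number of arrays limits the precision.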

Other observations

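In some genes of the pathway lists the probe sets disagreed. RUNX2, an osteoblast transcription factor induced by BMPs, had a probe set at 1.63 while its other 5 ran from -0.088 to 0.33. NEDD4L, a ubiquitin ligase for SMADs and receptors, ran from -1.43 to 0.73 over 6 probe sets around a mean of -0.098. In PPM1A, 4 of 6 probe sets lay between -1.55 and -0.57 and the other 2 at 0.27 and 0.31. These genes were chosen for this description after their values were seen, and which transcripts the probe sets match was not tested.

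USP15, a deubiquitinase of SMADs and TGF-beta receptors, entered no list value, because its probe sets also name MIR6125. All 4 of them lay above 0, at 0.11, 0.36, 0.36 and 0.42.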
